A study of Homo sapiens with 8 samples.

Results

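A set of 10 transcription factors that set the lineage of blood cells was followed here through 8 RNA sequencing libraries of KCL-22: GATA2, GATA1, RUNX1, SPI1, CEBPA, CEBPE, LMO2, MYB, IKZF1 and MEIS1. They are 10 of the 31402 entries of the deposited expression table, were taken by gene symbol, and each occurs there once. KCL-22 is a human chronic myeloid leukemia line established in blast crisis, driven by the BCR-ABL fusion kinase, and all cells carried DNA barcodes of the ClonTracer library. The vehicle library came from a barcoded population held for 7 days in 0.1% DMSO. Resistant populations (1 library each) were obtained with 2.5 µM imatinib over 27 days, 0.3 µM nilotinib over 27 days or 2.5 µM GNF-2 over 21 days. Imatinib and nilotinib occupy the ATP pocket of ABL, whereas GNF-2 acts allosterically through its myristate pocket. Clones 1, 2 and 4 were sorted from GNF-2-resistant cells without contact with a catalytic inhibitor, and Clone 3 from imatinib-resistant cells without contact with an allosteric one, so each clone library descends from a single cell. By labelled resistance, the imatinib population, the nilotinib population and Clone 3 (resistant to both catalytic compounds) form the catalytic-resistant group (n = 3). The GNF-2 population, Clone 1 and Clone 2 form the GNF-2-resistant group (n = 3), Clone 4 is resistant to all 3 compounds (n = 1), and vehicle has n = 1.

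These factors work as a network of partners and rivals. GATA2, RUNX1, MYB and MEIS1 maintain stem and progenitor cells. GATA1, with the bridging protein LMO2, directs erythroid, megakaryocytic and mast cell genes. PU.1 (the product of SPI1), C/EBPα (CEBPA) and C/EBPε (CEBPE) direct granulocytes and monocytes, PU.1 and GATA1 restrain each other, and Ikaros (IKZF1) acts mainly in lymphoid cells. In chronic myeloid leukemia, loss of C/EBPα activity and mutations of RUNX1 or IKZF1 are known from blast crisis.

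Values are FPKM (fragments scaled to transcript length and to library depth), so levels can be set beside each other between genes. Depth, estimated roughly from how finely the low values of intronless genes are graded, ran from 18500000 fragments (GNF-2 population) to 39000000 (Clone 1). Tests covered 11843 genes whose mean FPKM reached 1 and whose value was given in every library. Of these, 401 were listed at exactly 0 in at least 1 library. No source used here explains these zeros. Clone 4 had 10 genes at 0 that had at least 5 in each of the other libraries, against 1 to 5 in the other 7 libraries. The labels mention replicate populations but do not say whether the clones were sorted from the sequenced ones, so libraries of a group may share a culture and p-values measure only the spread between these samples. In such bulk RNA, fewer cells of a type and less RNA per cell cannot be told apart.

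The promoters of 8 of the 10 factors were found in the RefSeq promoter table (GRCh38.p14, read along the gene's strand), some with more than 1 start, giving 11 windows of 250 bases before the start. They were searched on both strands for GATA sites (AGATAA or TGATAA), a RUNX site (TGTGGT), a purine-rich ETS site of the kind PU.1 binds (GAGGAA) and a C/EBP site (TTNNGCAA). SPI1 and LMO2 were not found there, so no window of theirs could be searched or shown. The windows of GATA1 (chrX:48786340-48786589, plus strand), CEBPE (chr14:23119256-23119505, minus strand) and CEBPA (chr19:33302535-33302784, minus strand) are shown with matches in capitals. Among the factors found that had a value in every library, those genes had the largest spread between libraries. IKZF1, which lacks some values, was also found, and its windows are not shown.
GATA1: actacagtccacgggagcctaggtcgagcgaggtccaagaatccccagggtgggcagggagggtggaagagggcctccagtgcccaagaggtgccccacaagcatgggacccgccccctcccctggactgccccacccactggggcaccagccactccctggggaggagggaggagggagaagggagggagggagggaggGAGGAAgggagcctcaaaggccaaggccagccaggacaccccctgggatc
CEBPE: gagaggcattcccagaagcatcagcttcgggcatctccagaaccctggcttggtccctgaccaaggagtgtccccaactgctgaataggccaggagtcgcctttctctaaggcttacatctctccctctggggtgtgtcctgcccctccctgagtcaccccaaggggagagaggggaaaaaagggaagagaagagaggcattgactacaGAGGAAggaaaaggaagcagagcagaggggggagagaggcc
CEBPA: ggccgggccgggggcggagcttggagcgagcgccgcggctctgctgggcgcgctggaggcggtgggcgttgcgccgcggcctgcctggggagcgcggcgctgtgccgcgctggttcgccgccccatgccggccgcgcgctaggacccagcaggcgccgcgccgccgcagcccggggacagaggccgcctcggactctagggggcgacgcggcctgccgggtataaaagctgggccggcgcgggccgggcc
GATA1 and CEBPE each held 1 ETS match and CEBPA held none of the motifs. Among the 11 windows, 5 held the ETS letters, as did 23.6% of all 35116 promoters of that length. The GATA letters were in 1 of 11 windows (14.6% of all promoters), the RUNX letters in 2 (11%) and the C/EBP letters in 1 (9.05%). The GATA and C/EBP matches lay in windows of IKZF1, and the RUNX matches in IKZF1 and MEIS1. A match describes the sequence alone.

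**Figure D1:**
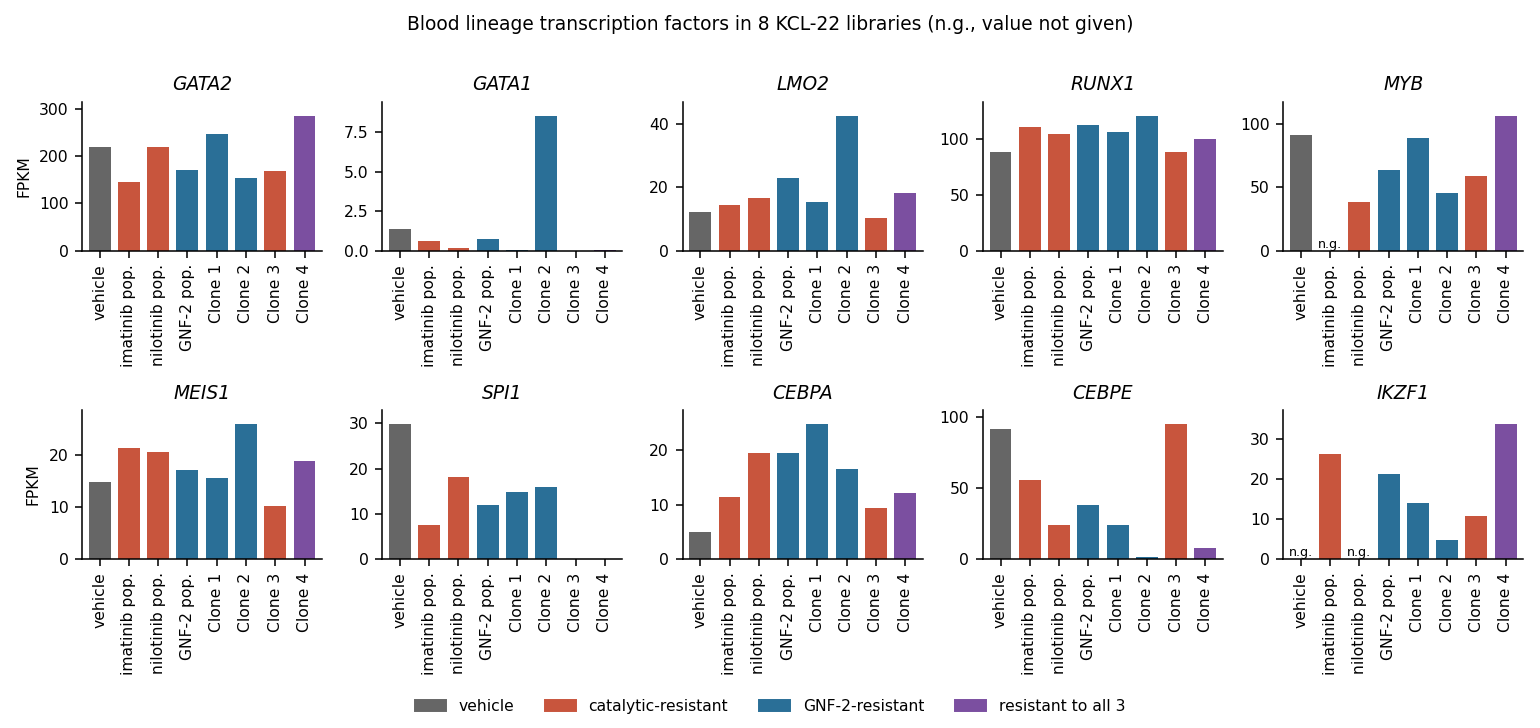
FPKM of the 10 factors (1 panel each, own linear axis from 0) in the 8 libraries, 1 bar per library, coloured by labelled resistance; n.g. marks a value not given. GATA1 and LMO2 stand highest in Clone 2, CEBPE in Clone 3 and vehicle, and SPI1 has no bar in Clones 3 and 4, where it is listed at 0.

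Of the progenitor factors, GATA2 and RUNX1 had the highest mean levels of the 10, and RUNX1, GATA2 and MEIS1 the smallest spread. GATA2, a zinc finger factor of stem cells, early progenitors and mast cells (chromosome 3, 128198264 to 128212030, GRCh37, as in all positions of the deposited table), stood at an FPKM of 219 with vehicle and of 145, 221 and 172 for the imatinib, nilotinib and GNF-2 populations. In Clones 1 to 4 GATA2 had 247, 155, 168 and 287. Its highest and lowest libraries were 1.98-fold apart, with vehicle near the middle. GATA2 had a mean of 202, above 97.2% of tested genes.

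RUNX1, the DNA-binding subunit of core-binding factor (chromosome 21, 36160097 to 37357047), had 88.3 in vehicle, 110 in the imatinib, 104 in the nilotinib and 112 in the GNF-2 population. The clones had 106, 121, 88.0 and 99.7 in order of number. RUNX1 varied least of the 10, with 1.37-fold between extremes and an SD of 0.16 on the log2(FPKM + 1) scale, and 10.5% of tested genes had a smaller one. Its partner CBFB, which stabilises DNA binding, lay between 46.7 (GNF-2 population) and 74.7 (Clone 2).

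MEIS1, a homeodomain partner of HOX proteins (chromosome 2, 66662531 to 66799891), had 14.8 in vehicle, 21.3, 20.5 and 17.1 in the imatinib, nilotinib and GNF-2 populations, and 15.6, 26, 10.2 and 18.8 in Clones 1 to 4. Its 2 extremes were Clone 2 and Clone 3, 2.55-fold apart. HOXA9, its best known leukemic partner, was listed at 0 in every library, while HOXB4 had 2.54 to 3.92 (HOXA9 and HOXB4 were picked after their values were seen).

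MYB, which keeps progenitors dividing (chromosome 6, 135502452 to 135540311), has no value in the imatinib population and so entered no test. It had 90.6 in vehicle, 38.0 after nilotinib and 63.7 after GNF-2. In Clones 1 to 4 MYB had 88.4, 45.5, 58.4 and 106. The nilotinib population was thus 2.39-fold below vehicle. Clone 4 was highest for MYB (next to 90.6 in vehicle), as for GATA2 (287, next to 247 in Clone 1). The share of all genes highest in Clone 4 is not given here, so nothing is read from this.

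GATA1 and LMO2 set Clone 2 apart. GATA1, the erythroid and megakaryocytic factor (chromosome X, 48644981 to 48652717), had 1.38 in vehicle, 0.633, 0.14 and 0.722 in the imatinib, nilotinib and GNF-2 populations, and 8.55 in Clone 2. It was close to absent in Clone 1 (0.0538) and Clone 4 (0.0402), and listed at 0 in Clone 3. With the annotated transcript of 1497 bases and the rough depths, that is about 303 fragments in Clone 2, 53.2 in vehicle, 20 in the GNF-2 population, 3.14 in Clone 1 and 1.31 in Clone 4. Clone 2 had 11.8 times the GATA1 level of the GNF-2 population, the culture type it was sorted from. The GATA1 mean of 1.44 reached the filter of 1 through Clone 2. The related GATA2 stood at 155 in Clone 2, above the 145 of the imatinib population.

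LMO2, which joins GATA factors to TAL1 and LDB1 (chromosome 11, 33880122 to 33913836), had 12.2 in vehicle and 14.5, 16.5 and 23.0 in the imatinib, nilotinib and GNF-2 populations. Clone 2 had 42.7, against 15.4 in Clone 1, 10.4 in Clone 3 and 18.4 in Clone 4. Clone 2 was therefore 3.50-fold above vehicle, and the other libraries lay between 10.4 and 23.0. The GATA1 cofactor ZFPM1 (FOG1), picked after its values were seen, was also highest in Clone 2, with 8.36 against 1.25 to 4.68 elsewhere. The TAL1-related LYL1 ran from 53.0 to 97.2 and LDB1 (picked likewise) from 36.9 to 54.0. TAL1 was listed at 0 in Clone 1 and had 16.1 to 31.9 in the other 7 libraries.

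The granulocytic factors CEBPE, SPI1 and CEBPA each had their own pattern across libraries. CEBPE, which drives late neutrophil maturation (chromosome 14, 23586514 to 23588820), had 91.5 in vehicle and 55.5, 23.8 and 38.1 in the imatinib, nilotinib and GNF-2 populations. Clone 3 had 95, Clone 1 had 23.5, Clone 4 had 7.48 and Clone 2 had 0.936, or about 34.5 fragments. Clone 2 and Clone 3 differed 102-fold. Against the GNF-2 population, Clone 2 was 40.7-fold and Clone 4 was 5.09-fold lower. The entry next to CEBPE on the chromosome, C14orf119, was also highest in Clone 3 (83.0 against 13.8 to 19.0 elsewhere; picked after its values were seen). Its part in the CEBPE value was not tested.

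SPI1 (chromosome 11, 47376408 to 47400127) encodes PU.1, the ETS factor of myeloid and B cells. SPI1 had 29.9 in vehicle and 7.50, 18.2 and 12.0 in the imatinib, nilotinib and GNF-2 populations. Clone 1 had 14.7 and Clone 2 had 15.8, and SPI1 was listed at 0 in Clones 3 and 4. Vehicle was the highest of the 8 libraries, 3.99-fold above the imatinib population and 1.64-fold above the nilotinib population, the nearest. SIRT3, a mitochondrial deacetylase that most cells use, was likewise at 0 in Clones 3 and 4 and at 6.51 to 11.8 elsewhere. These were the 2 genes of 11843 at 0 in both clones with at least 5 in the other 6 libraries. The deposited span of SPI1 also overlaps that of the zinc transporter gene SLC39A13, which was highest in the same clones (25.0 in Clone 3 and 22 in Clone 4, against 11.1 to 18.5). Whether SPI1 reads were assigned to SLC39A13 was not tested. If the zeros are true counts, 3 fragments would correspond to an FPKM of 0.0813 in Clone 3 and 0.0981 in Clone 4.

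CEBPA, needed for granulocyte and monocyte commitment (chromosome 19, 33790839 to 33793430), was lowest in vehicle. It had 4.93 there, 11.3 in the imatinib-resistant cells, 19.5 in both the nilotinib and the GNF-2 populations, and 24.9, 16.6, 9.42 and 12.2 in Clones 1 to 4. All 7 resistant libraries lay above vehicle, by 1.91-fold (Clone 3) to 5.04-fold (Clone 1). Vehicle was the lowest library for 19.8% of all tested genes. The neighbouring entry LOC80054 was at 0.677 with vehicle, against 2.00 to 3.96 under resistance (picked after its values were seen). CEBPA and CEBPE thus differed from vehicle in opposite directions in 6 of the 7 resistant libraries, Clone 3 being above vehicle for both (CEBPE 95 against 91.5).

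IKZF1, the lymphoid zinc finger factor Ikaros (chromosome 7, 50344377 to 50472798), has no value in vehicle or the nilotinib population and was not tested. It had 26.2 in the imatinib population and 21.3 in the GNF-2 population, and 13.9, 4.70, 10.7 and 33.8 in Clones 1 to 4. Clone 2 was 7.18-fold below Clone 4 and 4.52-fold below the GNF-2 population, and Clone 3 was 2.46-fold below the imatinib population. A comparison of IKZF1 with vehicle was therefore not made.

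Clones 2 and 3 lay at opposite ends for part of the list. For GATA1, RUNX1, LMO2 and MEIS1 Clone 2 was highest and Clone 3 lowest of all 8 libraries, as they were for 3.52% of tested genes. For CEBPE the order was the reverse (2.03% of tested genes). These orders were picked after the values were seen, and GATA1 is among the tested genes only through its level in Clone 2, so nothing is read from the counts. Clone 2 was highest for 4 and lowest for 2 of the 10 factors (16.3% and 12.8% of tested genes), and Clone 3 was highest for 1 and lowest for 5 (7.7% and 14.9%), counting SPI1 at 0 in both Clones 3 and 4. IKZF1, 1 of the 2 lowest in Clone 2, has 6 values and is not among the tested genes. RUNX1 hardly separates here, because its lowest value in Clone 3 (88.0) was next to that in vehicle (88.3).

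**Figure D2:**
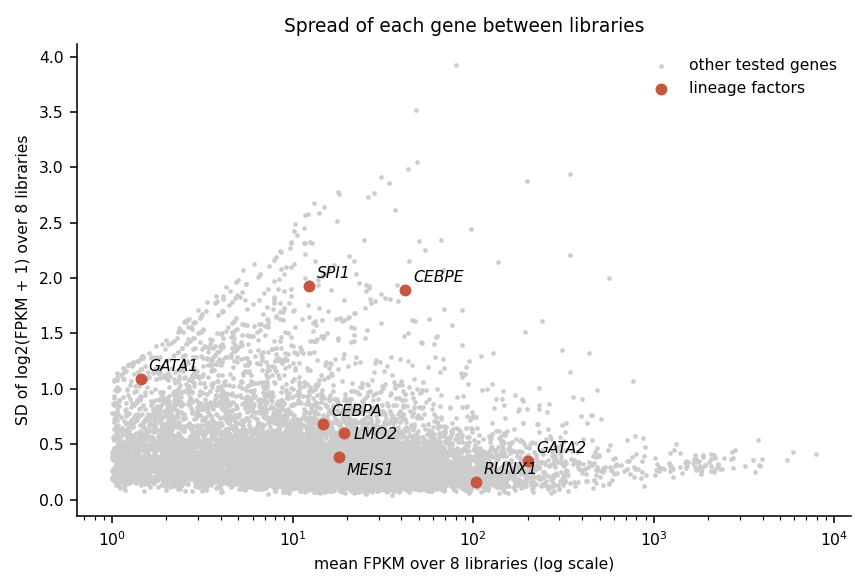
Spread of each tested gene between libraries (SD of log2(FPKM + 1) over the 8 libraries, vertical) against its mean FPKM (horizontal, log scale); grey points are the other genes of the 11843 tested and red points the 8 factors with a value in every library. SPI1 (1.93) and CEBPE (1.90) lie above the bulk of the points, and RUNX1 (0.16) near the bottom.

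The SD over the 8 libraries on the log2(FPKM + 1) scale was 1.93 for SPI1 and 1.90 for CEBPE, each above that of 99.3% of tested genes. GATA1 followed with 1.09, CEBPA with 0.68, LMO2 with 0.60, MEIS1 with 0.38, GATA2 with 0.35 and RUNX1 with 0.16, and the median of all tested genes was 0.32. The values of SPI1 and GATA1 include listed zeros.

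Single libraries were next compared with vehicle, counting genes at least 2-fold apart with 5 or more in the higher library, with no test because each condition has 1 library. The imatinib population differed for 2 of 8 factors with both values (2.99% of all tested genes), with SPI1 lower and CEBPA higher. The nilotinib population differed for 3 of 9 (4.58%), with CEBPA 3.95-fold higher, CEBPE 3.85-fold lower and MYB lower. The GNF-2 population differed for 3 of 9 (7.58%), with CEBPA 3.96-fold higher, SPI1 2.49-fold lower and CEBPE 2.40-fold lower. Clones 1, 2, 3 and 4 differed from vehicle for 3, 4, 1 and 3 of 9 factors, beside 15.5%, 15.8%, 12.4% and 20.2% of all genes. With the listed zeros of SPI1 taken as not given, Clone 3 differed for 0 of 8 and Clone 4 for 2 of 8. These 7 comparisons share the vehicle library. Between populations, GNF-2 differed from imatinib and from nilotinib for 0 of 9 factors each (3.92% and 2.25% of all genes), and imatinib differed from nilotinib for 2 of 8 (3.03%).

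Clones differed from the population type they were sorted from to unequal degrees. Clone 1 was within 2-fold of the GNF-2 population, or under an FPKM of 5 in both, for 10 of 10 factors (9.77% of all genes were apart). Clone 2 differed from it for 3 of 10 (11.3%), with GATA1 higher and CEBPE and IKZF1 lower. Clone 4 differed for 2 of 10 (11.3%), with CEBPE and SPI1 lower. Clone 3 differed from the imatinib population for 3 of 9 (10.8%), with IKZF1, MEIS1 and SPI1 lower. Between clones, Clone 2 differed from Clone 3 and from Clone 4 for 6 of 10 factors each (10.6% and 10.9% of all genes). Clone 1 differed from Clones 2, 3 and 4 for 4, 3 and 4 of 10 (7.68%, 5.73% and 7.67%). Clones 3 and 4, both resistant to catalytic inhibitors, differed for 2 of 10 (8.62%), CEBPE and IKZF1. With the listed zeros of SPI1 taken as not given, Clone 4 differed from the GNF-2 population for 1 of 9 factors, Clone 3 from the imatinib population for 2 of 8, and Clone 2 from Clone 3 and from Clone 4 for 5 of 9 each. Clone 1 then differed from Clone 3 for 2 of 9 and from Clone 4 for 3 of 9.

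Replicated groups were compared with limma on log2(FPKM + 1) over all tested genes, with Benjamini-Hochberg adjustment. The first question was whether resistance to the catalytic or to the allosteric inhibitor goes with a different set of lineage factors. Of the 8 tested factors 0 passed an adjusted p of 0.05 (0.0338% of all genes did) and 0 had an unadjusted p below 0.05 (4.87% did). The 2 groups overlapped for all 8 factors (10.9% of all genes did not overlap). CEBPE had 58.1 ± 35.7 (SD, n = 3) in the catalytic-resistant and 20.8 ± 18.7 (SD, n = 3) in the GNF-2-resistant group, a log2 difference of -2.06 (SE 1.15, limma adjusted p = 0.846), which was -0.73 without Clone 2. LMO2 had 13.8 ± 3.11 (SD, n = 3) and 27.0 ± 14.1 (SD, n = 3), a difference of 0.83 (95% interval -0.06 to 1.72, limma adjusted p = 0.846), and 0.45 without Clone 2. CEBPA had 13.4 ± 5.35 (SD, n = 3) and 20.3 ± 4.17 (SD, n = 3), a difference of 0.61 (95% interval -0.08 to 1.3, limma adjusted p = 0.846), and 0.41 without Clone 3. The GATA1 difference of 1.07 (SE 0.81, limma adjusted p = 0.851) was 0.13 without Clone 2. For RUNX1 the 95% interval ran from -0.17 to 0.50. SPI1 differed by 1.47 (SE 1.00, limma adjusted p = 0.846), and by 0.24 without Clone 3, where it is listed at 0. Leaving out GATA1, which passed the filter only through Clone 2, the median over the other 7 factors was 0.20, beside 0.01 over all genes.

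**Figure D3:**
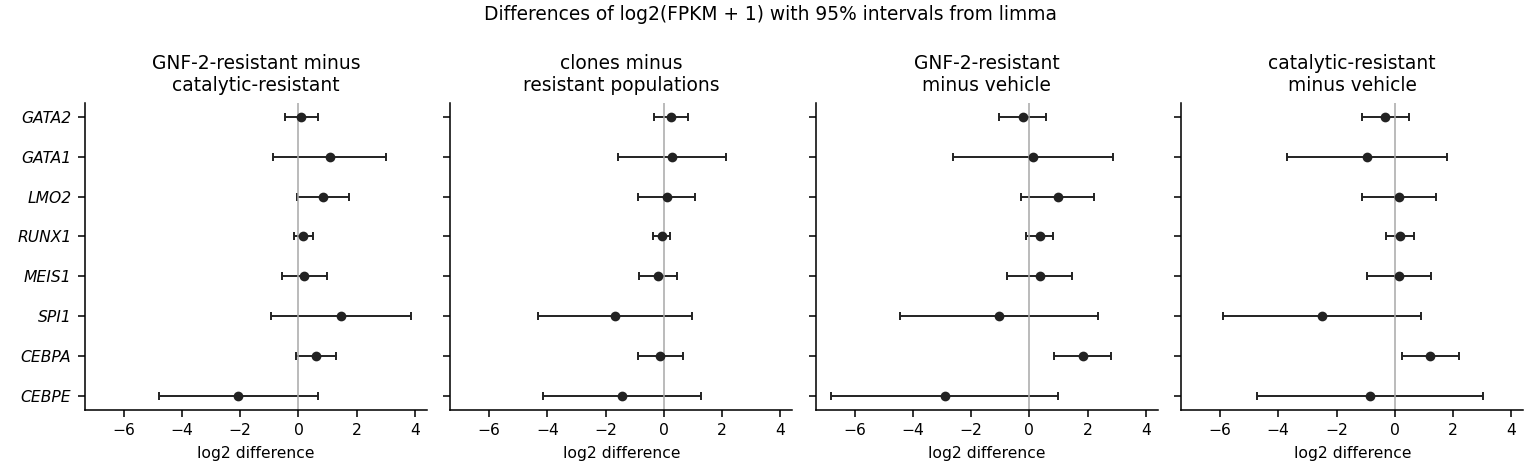
Differences of log2(FPKM + 1) for the 8 tested factors in 4 comparisons (points, with horizontal bars for 95% intervals from limma and a line at 0). The intervals of CEBPA against vehicle lie to the right of 0 before adjustment for 11843 genes, and those of SPI1, CEBPE and GATA1 are wide.

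Clones (n = 4) against resistant populations (n = 3) asked what single-cell descent goes with. Again 0 of 8 factors passed (7.46% of all genes did, 883 genes, and 13 genes with the inhibitor of origin as a block), 0 had an unadjusted p below 0.05 (27.1%), and the groups overlapped for all 8 (26.3% of genes did not overlap). SPI1 had 7.64 ± 8.83 (SD, n = 4) in clones and 12.6 ± 5.37 (SD, n = 3) in populations, a log2 difference of -1.67 (SE 1.14, limma adjusted p = 0.388). It was -1.0 without either Clone 3 or Clone 4, and 0.34 (limma adjusted p = 0.59) when their listed zeros were taken as not given and those 2 libraries dropped for SPI1. CEBPE had 31.7 ± 43.2 (SD, n = 4) and 39.1 ± 15.9 (SD, n = 3), a difference of -1.44 (SE 1.17, limma adjusted p = 0.472), which was -0.48 without Clone 2 and -2.36 without Clone 3. The SD among clones exceeded their mean for both. The median over the 7 factors other than GATA1 was -0.13, beside -0.08 for all genes.

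Vehicle has 1 library, and its variance is borrowed from the replicated groups. In comparison with it, 0 of 8 factors passed in the GNF-2-resistant group (0.0929% of genes did) and 0 of 8 in the catalytic-resistant group (0.0338%). CEBPA alone had an unadjusted p below 0.05 in each (11.1% and 2.69% of genes did). In the GNF-2-resistant group CEBPA was higher by 1.83 on the log2 scale (95% interval 0.85 to 2.81, limma adjusted p = 0.42, higher in 3 of 3 libraries). In the catalytic-resistant group it was higher by 1.22 (95% interval 0.24 to 2.20, limma adjusted p = 1, 3 of 3 libraries). CEBPE differed by -2.91 (SE 1.62, limma adjusted p = 0.52) in the GNF-2-resistant group, and by -1.58 without Clone 2. SPI1 differed by -2.50 (SE 1.42, limma adjusted p = 1) in the catalytic-resistant group, and by -1.27 without Clone 3, where it is listed at 0. All libraries of the GNF-2-resistant group lay on one side of vehicle for 6 of 8 factors (60.0% of genes), and those of the catalytic-resistant group for 3 of 8 (50%). The medians over the 7 factors other than GATA1 were 0.35 and 0.14, beside 0.04 and 0.02 for all genes.

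The wider network was read from lists of other blood factors. In none of the 4 comparisons did limma call a member of the stem and progenitor (21 of 30 tested), erythroid and megakaryocytic (21 of 24), granulocytic and monocytic (24 of 32) or lymphoid (15 of 30) factor lists, or of the family paralogs (13 of 23). Nor did it call any of 6 direct partners. Of all genes, 0.0338% were called between GNF-2-resistant and catalytic-resistant libraries and 7.46% between clones and populations. The shares against vehicle are those given above. Where so few genes were called, 0 calls tell little about these lists. At an unadjusted p below 0.05, the 5 lists had 1, 3, 6, 1 and 2 genes between GNF-2-resistant and catalytic-resistant libraries, and 5, 6, 0, 0 and 0 between clones and populations, where 4.87% and 27.1% of all genes did so. Against vehicle they had 0, 1, 5, 2 and 5 genes in the GNF-2-resistant group and 0, 1, 1, 1 and 4 in the catalytic-resistant group, beside 11.1% and 2.69% of all genes. Some genes stand on 2 of these lists, among them CEBPB, CEBPD, CEBPG, CEBPZ and LMO4, so the counts of the lists are not separate. The median log2 difference between GNF-2-resistant and catalytic-resistant libraries was 0.00, -0.07, -0.01, -0.06 and 0.00 in the list order above, beside 0.01 for all genes. For clones against populations the medians were -0.01, -0.09, -0.16, -0.19 and -0.14, beside -0.08.

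Among the members with the largest range, extremes lay in clones, populations or vehicle. CBFA2T3 (ETO2), a corepressor in the GATA1 and TAL1 complex, had 32.9 in Clone 2 and 2.81 in Clone 3, with 10 to 22.8 in the other libraries. GFI1B, the erythroid and megakaryocytic repressor, ran from 26.3 in Clone 3 to 176 in the GNF-2 population. BCL11A, the repressor of fetal globin, was lowest in Clone 2 (6.29) and had 14.2 to 31.6 elsewhere. ERG, a progenitor ETS factor, was highest in Clone 4 (41.5) and Clone 1 (31.6) against 8.47 in vehicle. Among lymphoid factors LEF1, a Wnt effector, had 21.9 in Clone 4 and 0.1 in Clone 3, and ZBTB16 (PLZF) had 20.4 in Clone 2 and 0.0311 in Clone 3.

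Of the paralogs, LMO4 ran opposite to LMO2 in Clone 2, where it was lowest (0.565, against 2.78 to 5.30). CEBPB, the C/EBP protein of emergency granulopoiesis, was also lowest in Clone 2 (6.81), next to 9.75 in the imatinib population and 17.5 to 29.3 elsewhere. RUNX3 was highest in vehicle (35.0, against 9.58 to 21.0 in the resistant libraries). Among granulocytic and monocytic factors the differentiation inhibitor ID2 was lowest in Clone 2 (1.07) and Clone 1 (1.48), with 5.68 to 23.8 elsewhere, and TFEC had 0.0514 to 0.405 in Clones 1 to 3 against 3.72 to 8.92 elsewhere. JDP2 ran from 0.443 (imatinib population) to 8.25 (Clone 4). Among progenitor factors HMGA2, a chromatin protein of fetal stem cells, was lowest in Clone 1 (1.73) and highest in vehicle (11.6). NFIL3, needed for natural killer cells, had 41.6 in vehicle and 6.34 in Clone 4.

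**Figure D4:**
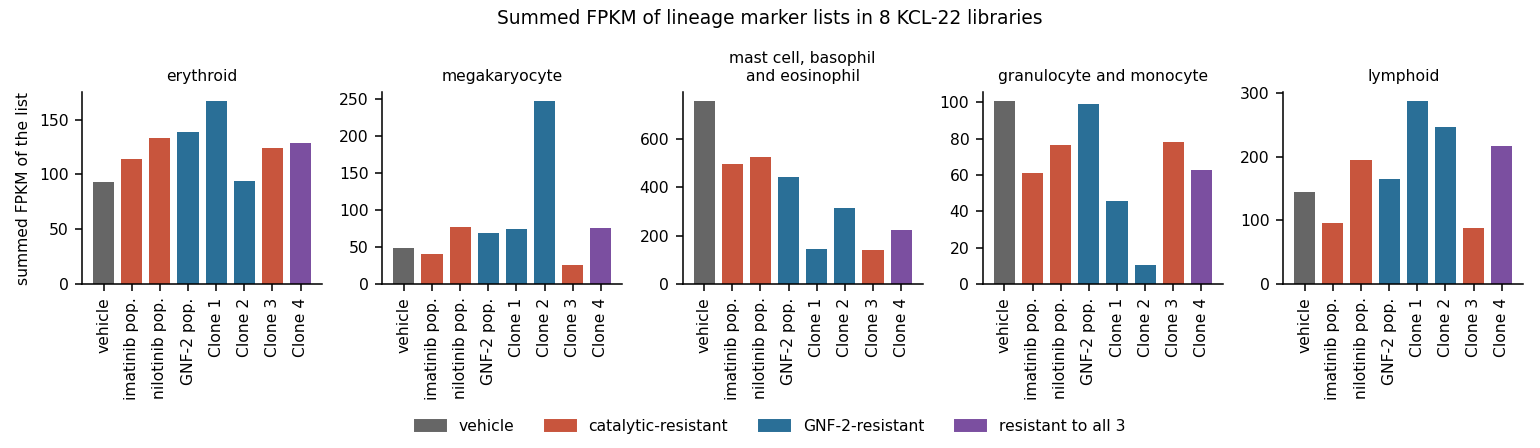
Summed FPKM (vertical, linear axes from 0) of 5 lineage marker lists in the 8 libraries, 1 bar per library coloured by labelled resistance. Clone 2 has the highest megakaryocyte sum (246) and the lowest granulocyte and monocyte sum (10.2).

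Marker genes of the blood lineages were read beside these levels. Of 19 erythroid markers, 2 had an FPKM of at least 1 in 7 libraries and 3 in Clone 2, where EPB42 had 1.57. The erythroid list summed to 93.9 in Clone 2, next to 93.1 in vehicle and 115 to 167 elsewhere. Most of it was GYPC, with 89.5 in Clone 2, 86.8 in vehicle and 109 to 164 elsewhere. EPOR had 2.18 in Clone 2 and 2.15 to 6.11 elsewhere. The megakaryocyte list summed to 246 in Clone 2 and to 24.8 (Clone 3) to 77.4 (nilotinib population) elsewhere. In Clone 2 the platelet integrin ITGB3 had 90.1 (1.44 to 17.9 elsewhere), GP9 of the von Willebrand receptor had 119 (20.3 to 55.6) and the collagen receptor GP6 had 30.1 (2.60 to 15.3). Together they made up most of the Clone 2 sum. Of the 11 listed megakaryocyte genes with an entry, 5 had an FPKM of at least 1 in Clone 2, as many as in the GNF-2 population and in Clone 4. Clone 2 is also the library highest in GATA1, LMO2, ZFPM1 and CBFA2T3, a set picked after its values were seen. It is the highest library for 16.3% of tested genes. Other erythroid and megakaryocytic factors were highest elsewhere, GFI1B in the GNF-2 population (176, against 82.7 in Clone 2) and NFE2 in Clone 1 (56.1, against 50.6). BCL11A was lowest in Clone 2. A link between these factors and the markers was not tested. ITGA2B was highest in Clone 1 (7.97, against 5.05 in Clone 2).

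The granulocyte and monocyte list summed to 10.2 in Clone 2, where CEBPE was lowest, and to 45.5 (Clone 1) to 100.5 (vehicle) elsewhere. There cathepsin G (CTSG) had 0.048 (4.21 to 41.4 elsewhere), azurocidin (AZU1) had 0.632, next to 0.72 in Clone 4, and the Fc receptor FCGR1A had 0.349 (13.0 to 32.3). Of the 16 listed genes, 3 had at least 1 in Clone 2, against 5 to 9 elsewhere. Not all were low in Clone 2. CD33 was highest there (3.35, against 0.157 to 3.07) and LCN2 had 1.33 (0.166 to 1.66 elsewhere), both picked after their values were seen. The sum did not follow CEBPE through all libraries, since Clone 3 had the highest CEBPE and a sum of 77.9. MPO, the defining neutrophil enzyme, was at most 0.403 in any library. Proteinase 3 (PRTN3) and the G-CSF receptor CSF3R were lower in clones than in resistant populations, with log2 differences of -1.45 (limma adjusted p = 0.0249) and -1.27 (limma adjusted p = 0.0208). Both lay under an FPKM of 1 in every clone and passed the filter through the other libraries, so they had to differ between clones and the rest to be tested. With no filter the limma adjusted p was 0.0941 for PRTN3 and 0.043 for CSF3R. HDC, the histamine-forming enzyme of mast cells and basophils, was lower in clones by 1.42 (limma adjusted p = 0.0343, and 0.127 with no filter). HDC had 435 to 519 in the resistant populations and 136 to 314 in clones. The mast cell, basophil and eosinophil list as a whole summed to 755 in vehicle, 443 to 524 in the populations and 139 to 316 in the clones, mostly HDC, and the tryptase gene TPSAB1 was highest in Clone 4 (48.1, against 0.841 to 7.58). These were the 3 calls among 27 tested genes of 6 marker lists (11.1%, against 7.46% of all genes). PRTN3 and CSF3R entered the 27 only through libraries other than the clones, so nothing is read from that share. Each call was lost in some alternatives. PRTN3 was lost without the imatinib population, the nilotinib population, the GNF-2 population or Clone 1 (limma adjusted p = 0.0596 to 0.0969). CSF3R was lost without the imatinib population, the nilotinib population or Clone 1 (limma adjusted p = 0.0583 to 0.0942). HDC was lost when any 1 of the 6 libraries other than Clone 2 was left out (limma adjusted p = 0.0592 to 0.136). With resistance as a covariate the limma adjusted p was 0.0793, 0.0793 and 0.112, and with the inhibitor of origin as a block 0.119, 0.167 and 0.203.

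The lymphoid list summed to 87.6 (Clone 3) to 287 (Clone 1), with CD79A at 17.4 to 98.9 and IGLL1, a surrogate light chain, at 3.02 (Clone 3) to 117 (Clone 2). Markers of stroma and epithelium summed to 34.0 (Clone 4) to 133 (Clone 2), chiefly KRT8 and KRT18, and COL1A1 was at most 0.927. The part of other lineages' transcripts in the factor levels was not tested.

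Genes most alike in pattern were taken for the 3 most variable factors, by the mean absolute difference of centred log2(FPKM + 1) over the 8 libraries among genes with a mean of at least 5. For CEBPE these were lactoperoxidase (LPO, 0.56), carbonic anhydrase CA2 (0.56) and TARP (0.57). CA2 had 692 in Clone 3, 378 in vehicle and 20.7 in Clone 2. For GATA1 they were XK, an erythrocyte membrane protein (0.29), SNTB1 (0.30) and FANCA (0.35). XK had 87.6 in Clone 2 and 9.21 to 16.3 elsewhere, and SNTB1 had 149 in Clone 2 and 62.7 in vehicle. For SPI1 the closest were SIRT3 (0.45), which shares its listed zeros in Clones 3 and 4, and CACNB4 (0.77), which had 7.38 and 1.34 there and 15.9 to 32.4 elsewhere.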

How the data were processed

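Total RNA of 8 libraries was sequenced. The authors deposited 1 table of FPKM values per gene and library, and TopHat 1.3, Cufflinks 1.3 and build GRCh37 are listed in the submitters' processing notes. The header names no unit, which was taken from the tool and the values (sums of 497775 to 583520 per library). The factors and gene lists were chosen with earlier results of these data known. MYB and IKZF1 lack values and were described, not tested. Genes averaging an FPKM of 1 or more, with a value in all 8 libraries, were fitted on log2(FPKM + 1) with limma 3.58.1 in R 4.3.3 (trended variance, 1 mean per resistance group, or per vehicle, population and clone), two-sided, at an adjusted p of 0.05; the code was tested on simulated data. Depth and transcript lengths used GENCODE release 29 (GRCh38). Whether counting used strand was not found in the labels or notes.

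All 10 factors are named. From wider lists the rule took genes past the threshold and the 3 with the largest range, for partners the 2 highest (LYL1 and CBFB), and for markers up to 4 by mean level. Some genes of these lists are not reported here. Promoters are RefSeq's. Python 3.11.15, pandas 2.3.3 and matplotlib 3.10.9 made tables and figures. Alternatives were other pseudocounts, filters, scaling and covariates, genes above 0 throughout, and leaving out each replicate.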

Additional observations from a re-analysis of the deposited data

Results flagged for a closer look

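GATA1 in Clone 2 (FPKM 8.55) lay far outside the other 3 clones, which had 0.0538 (Clone 1), 0.0402 (Clone 4) and a listed 0 (Clone 3). The gap to the nearest clone was nearly the whole range of the 4 clones. It was flagged by the 95% critical value of Dixon's test on FPKM, and 10 factors were looked at. The 4 clones differ in labelled resistance or origin and are not replicates, and 3 of the values lie near 0. An error rate of 1 in 20 therefore does not hold here, and nothing is read from the flag beyond the values. The value stands for about 303 fragments at the rough depth estimate.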

How the results depend on the processing

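In all 4 comparisons and under every alternative run, 0 of the tested factors passed the threshold; the lowest limma adjusted p was 0.464 (catalytic-resistant against GNF-2-resistant), 0.145 (clones against populations), 0.283 (GNF-2-resistant against vehicle) and 0.941 (catalytic-resistant against vehicle). Directions of the factor differences given in the report held except for SPI1 between clones and populations, which turned to 0.34 with its zeros taken as not given, an alternative chosen after seeing the data. Counts over all genes moved more, and the cause was not tested. Catalytic-resistant against GNF-2-resistant gave 4, and 1 with no filter, 2 at a mean FPKM of at least 5, 0 with only genes above 0 throughout, and 1 to 10 with a replicate left out (1 without the imatinib population, 10 without the GNF-2 population, 9 without Clone 3). Clones against populations gave 883, and 320 with no filter, 238 with resistance as a covariate, 13 with the inhibitor of origin as a block (chosen after seeing the data), and 128 to 1086 with a replicate left out (200 without the imatinib, 128 without the nilotinib and 276 without the GNF-2 population, 264 without Clone 1, 556 without Clone 4). GNF-2-resistant against vehicle gave 11, and 253 with no filter, 7 at a mean of at least 5, 0 with only genes above 0, and 1 to 13 with a replicate left out (1 without Clone 1, 3 without Clone 2, 4 without the nilotinib population, 7 without the imatinib population or Clone 3). Catalytic-resistant against vehicle gave 4, and 243 with no filter, 2 at a mean of at least 5, 1 after rescaling, 0 with only genes above 0, and 0 to 1 with a replicate left out (1 without Clone 2). A lone library left in a group is assumed to vary like the others. At these depths GATA1 in Clones 1 and 4 rests on a few fragments. Libraries could not be paired by replicate number, because these numbers were given in accession order and only name samples. In the labels the resistance groups share fewer than 2 numbers. The labels do give the inhibitor of origin, which was used only as the block for clones against populations (13 genes).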
